A study of Mus musculus with 4 samples.

Results

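Nr4a-high cells are T cells with abundant transcripts of the orphan nuclear receptors Nr4a1 and Nr4a3. They were studied among unconventional αβ T cells (UTCαβ, T cells with an αβ receptor but without CD4 or CD8) from mouse sarcomas. A barcode of the single-cell RNA sequencing (scRNA-seq) was a member when it held at least 200 genes, at most 20000 unique molecular identifiers (UMIs, 1 per captured transcript), at most 10% mitochondrial UMIs, at least 1 UMI of Cd3e, at least 3 UMIs of Nr4a1 and Nr4a3 together, and fewer than 5 UMIs of the heat-shock genes Hspa1a, Hspa1b, Hsph1 and Dnajb1. There were 1405 such cells among 14833 T cells under the same heat-shock limit, 21342 T cells in all and 32525 barcodes. They were compared with 9739 T cells under the same limit that held no UMI of Nr4a1 or Nr4a3, called Nr4a-zero cells here. Because the members were selected on measured Nr4a1, Nr4a3, Cd3e and heat-shock UMIs, the values of these 7 genes describe the selection and were not tested.

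The cells came from sarcomas induced by subcutaneous 3-methylcholanthrene in male C57BL/6J mice, either Csf3r+/+ (wild type) or Csf3r-/-, which lack the receptor for granulocyte colony-stimulating factor throughout the body and are neutropenic. All tumors were minced and enzyme-digested, and CD45+ CD11b- TCRβ+ TCRγδ- CD4- CD8- cells were enriched on magnetic beads and sorted, so the gate removes most myeloid cells and conventional T cells. The age of the mice is not given in the sources used here. There were 2 biological replicates of each genotype, with 1 library of 3′ transcript ends each. Both libraries of a genotype share 1 matrix, and the number at the end of a barcode separates them. Since the labels tie neither number to a sample, the libraries are named library 1 and library 2 without order. Csf3r itself had 1 and 3 UMIs in all T cells of the Csf3r+/+ libraries and 2 and 1 in those of the Csf3r-/- libraries, so in these cells it cannot check the labels.

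As background, Nr4a1, Nr4a2 and Nr4a3 encode nuclear receptors that are immediate early genes: their transcripts rise within the first hours after a T cell receptor signal and decay when the signal stops, and they also respond to cAMP and to inflammatory signals in many other cells. In T cells Nr4a proteins restrain activation and are known from tolerant and exhausted cells. The same stimuli induce NF-kB target genes, which include the inhibitors that end NF-kB signalling, and AP-1 genes of the Fos and Jun families. Enzymatic digestion and sorting of tissue can induce immediate early and heat-shock genes as well. Whether the transcripts measured here arose in the tumor or during preparation cannot be told apart, since no library was made without these steps.

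The promoters of the 3 Nr4a genes are shown because the cells were chosen by 2 of them and the third was found beside them. A known input to these genes is the cAMP response element, whose core reads TGACG, or CGTCA on the other strand. The sequences are from RefSeq (GRCm38.p6), 5′ to 3′ on the strand of the gene, with these cores in capitals. Nr4a1 (chr15:101266596-101266845, plus strand) and Nr4a2 (chr2:57124004-57124253, minus strand) are shown for the 250 bases before the start that RefSeq gives. GENCODE starts Nr4a1 farther upstream, at position 101254269, so that this window lies inside the gene there, outside its exons. Of the same window of Nr4a3, only chr4:48045055-48045152 (plus strand) is shown, since GENCODE starts an exon of Nr4a3 at its end.
Nr4a1: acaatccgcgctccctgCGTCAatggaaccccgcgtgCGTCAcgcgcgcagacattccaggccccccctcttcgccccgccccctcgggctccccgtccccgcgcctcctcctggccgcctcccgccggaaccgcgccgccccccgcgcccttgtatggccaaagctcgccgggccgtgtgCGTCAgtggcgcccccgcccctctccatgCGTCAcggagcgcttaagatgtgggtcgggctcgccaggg
Nr4a2: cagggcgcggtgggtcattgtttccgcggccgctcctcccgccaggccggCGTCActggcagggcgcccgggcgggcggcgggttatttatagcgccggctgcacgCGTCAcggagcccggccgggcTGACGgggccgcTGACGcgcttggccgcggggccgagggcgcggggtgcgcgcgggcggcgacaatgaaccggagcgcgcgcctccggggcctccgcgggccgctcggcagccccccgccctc
Nr4a3: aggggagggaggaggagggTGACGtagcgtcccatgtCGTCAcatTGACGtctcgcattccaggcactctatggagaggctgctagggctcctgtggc
Each of the 3 windows of 250 bases held 4 cores, counted on both strands with overlaps allowed. At least 1 core was found in 17.7% of 32817 RefSeq promoters of that length, and 4 or more in 0.137%. These matches describe letters, and binding was not measured.

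Nr4a-high cells were spread very unevenly over the libraries. Csf3r+/+ library 1 held 2 of them among 1524 T cells under the heat-shock limit, which is 0.131% (exact 95% interval 0.0159 to 0.473). Csf3r+/+ library 2 held 363 of 2935, or 12.4% (11.2 to 13.6). Csf3r-/- library 1 held 269 of 4501, or 5.98% (5.3 to 6.71), and Csf3r-/- library 2 held 771 of 5873, or 13.1% (12.3 to 14.0). The intervals are Clopper-Pearson intervals and cover counting error only. The Csf3r+/+ libraries had a mean share of 6.25% ± 8.65 (SD, n = 2), against 9.55% ± 5.06 (SD, n = 2) for the Csf3r-/- libraries, and the Csf3r+/+ libraries lay on both sides of Csf3r-/- library 1. The difference of 3.3 percentage points gave p = 0.667 in a two-sided exact permutation test, for which 0.333 is the smallest p that 2 libraries against 2 can reach. Without Csf3r+/+ library 1 the difference was -2.82 points. The heat-shock limit removed 46.4% and 54.6% of the T cells of the Csf3r+/+ libraries and 13.7% and 14.0% of those of the Csf3r-/- libraries. With no such limit the shares were 0.387%, 15.1%, 6.17% and 14.5% in the same order of libraries. After thinning every cell to 1500 UMIs they were 0%, 3.51%, 2.21% and 7.02%, with 63, 139, 541 and 975 T cells too shallow to enter, and 0 of 2078 cells in Csf3r+/+ library 1 allows a share of up to 0.177%. After thinning the order of the libraries was as before, while with no heat-shock limit Csf3r+/+ library 2 lay above Csf3r-/- library 2. Thinning came before the heat-shock limit and let more cells pass it, 2078 and 4357 in the Csf3r+/+ libraries against 1524 and 2935 before, so values of thinned cells carry both changes.

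**Figure D1:**
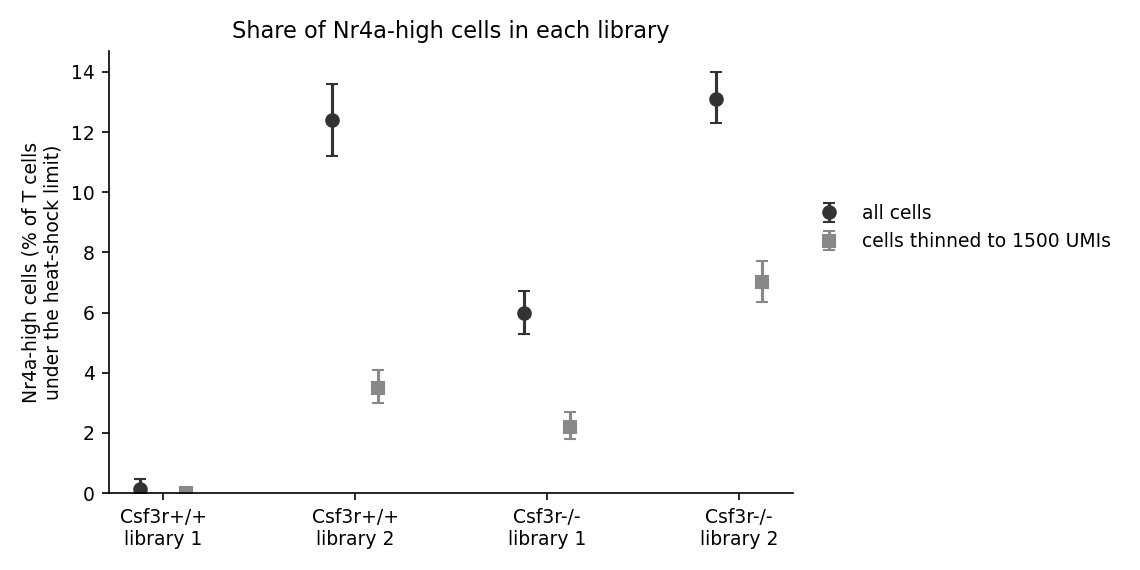
Share of Nr4a-high cells (vertical axis, percent of T cells under the heat-shock limit) in each of the 4 libraries, for all cells (circles) and for cells thinned to 1500 UMIs (squares), with exact 95% intervals. Csf3r+/+ library 1 is near 0 on both scales, while Csf3r+/+ library 2 and Csf3r-/- library 2 are at 12.4% and 13.1% before thinning.

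Csf3r+/+ library 1 stood apart in all of its T cells, not only in the count of members. Levels are given as CPM, the UMIs of a gene per 1000000 UMIs of the cells summed, in the order Csf3r+/+ library 1, Csf3r+/+ library 2, Csf3r-/- library 1 and Csf3r-/- library 2. Over all T cells Nr4a1 was at 19.7, 242, 167 and 374 CPM. Crem, a transcription factor gene that responds to cAMP, was at 55.9, 549, 210 and 913 CPM. Tnfaip3, which encodes the NF-kB inhibitor A20, was at 30.2, 486, 202 and 397 CPM. Each of these genes was lowest in Csf3r+/+ library 1 by a wide margin. The AP-1 genes were divided. Junb (1380, 2980, 2880 and 4490 CPM), Fosl2 (29.4, 304, 155 and 346 CPM) and Atf3 (7.33, 44.2, 16.8 and 66.6 CPM) were lowest there as well. Fos was not, at 1140, 874, 607 and 740 CPM. Jun was at 1450, 913, 419 and 529 CPM, and Egr1 was at 117, 48.5, 26.3 and 43.3 CPM. The library with the fewest Nr4a-high cells thus had the lowest Junb, Fosl2 and Atf3 but the highest Fos, Jun and Egr1 of the 4. The labels give no date, run or other batch that sets this library apart, so its difference from the other libraries and the difference between 2 mice cannot be told apart. Because its 2 members hold 6519 UMIs in all, results are given below for 3 libraries by value and the fit was made with and without it.

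Members held transcripts of the T cell receptor complex beyond the Cd3e of the selection. Of 10 tested genes of this complex, 1 rose and none fell over 4 libraries. Such markers cannot tell a single T cell from a barcode that also holds another cell. Cd3d, a subunit of the T cell receptor complex, was at 905, 1030 and 1020 CPM in Nr4a-high cells of Csf3r+/+ library 2, Csf3r-/- library 1 and Csf3r-/- library 2, and at 1040, 1190 and 1170 CPM in Nr4a-zero cells. This order of 3 libraries is used for every triplet that follows. Cd3d changed by -0.2 ± 0.169 (adjusted p = 0.569) over 4 libraries and fell without Csf3r+/+ library 1 (adjusted p = 0.0416). The coreceptor genes Cd4 and Cd8b1 were between 2.08 and 33.5 CPM in members and were not called. Cells held a median of 4 UMIs of Nr4a1 and Nr4a3 and at most 14. Just inside the threshold, 636 members (45.3%) had exactly 3 UMIs, and just outside it 323, 216 and 587 cells had exactly 2. Among members 807 held Nr4a1 alone, 576 held both genes and 22 held Nr4a3 alone. The third receptor gene, Nr4a2, had a UMI in 23.4% of members against 7.41% of Nr4a-zero cells, at median depths of 2633 and 2138 UMIs. Members were also deeper within each library, with medians of 3324, 2791 and 2238 UMIs against 2550, 2073 and 1838. Depth enters the selection, since a deeper cell reaches 3 UMIs more easily, so some lists are also counted in cells matched in depth.

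The question of the main comparison was which other transcripts accompany Nr4a1 and Nr4a3. UMIs were summed over Nr4a-high and over Nr4a-zero cells of each library and tested with edgeR's quasi-likelihood test with library as a block. Of 9947 genes tested, 578 rose and 308 fell at an adjusted p under 0.05 (Benjamini-Hochberg), which is 5.81% higher and 3.1% lower in members. Without Csf3r+/+ library 1, 508 of 9829 genes rose (5.17%) and 231 fell (2.35%). Of the genes called, 644 were called in both fits, all 644 in the same direction. The median change of all genes was -0.06 on the log2 scale. Below, a log2 fold change and its standard error are from the fit of 4 libraries, and the adjusted p is the larger of the edgeR values with and without Csf3r+/+ library 1. DESeq2 called 213 genes, all of them among the 644. In depth-matched cells 398 of 7806 genes rose and 75 fell, and in thinned cells 213 of 9440 rose and 85 fell.

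The genes that carry the label were higher in members of all 3 libraries. Of all 9947 tested genes, 1463 were higher in members of all 3. How many genes had no overlap between the groups was not counted. Gadd45b (chr10:80930073-80932204), a stress-inducible gene of the Gadd45 family, was at 843, 1240 and 1430 CPM in Nr4a-high cells and at 194, 190 and 430 CPM in Nr4a-zero cells. It rose by 2.26 ± 0.151 (log2, adjusted p = 8.8e-10), and the groups did not overlap. Cd83 (chr13:43784775-43803132), a surface protein of activated lymphocytes and dendritic cells, was at 174, 357 and 474 CPM against 62.7, 48.6 and 141 CPM. It rose by 2.03 ± 0.122 (adjusted p = 1.62e-07), again without overlap. Crem was at 1140, 609 and 1360 CPM against 502, 132 and 711 CPM, and it rose by 1.41 ± 0.151 (adjusted p = 2.48e-06). Here the groups overlapped across libraries, since Csf3r-/- library 2 had more Crem in its Nr4a-zero cells than Csf3r-/- library 1 in its members. With DESeq2 on 4 libraries the adjusted p of Crem was 0.063, and on 3 libraries 0.0027. Nr4a2 was at 167, 79.0 and 127 CPM against 85.3, 26.7 and 58.1 CPM and rose by 1.17 ± 0.12 (adjusted p = 9.7e-07).

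**Figure D2:**
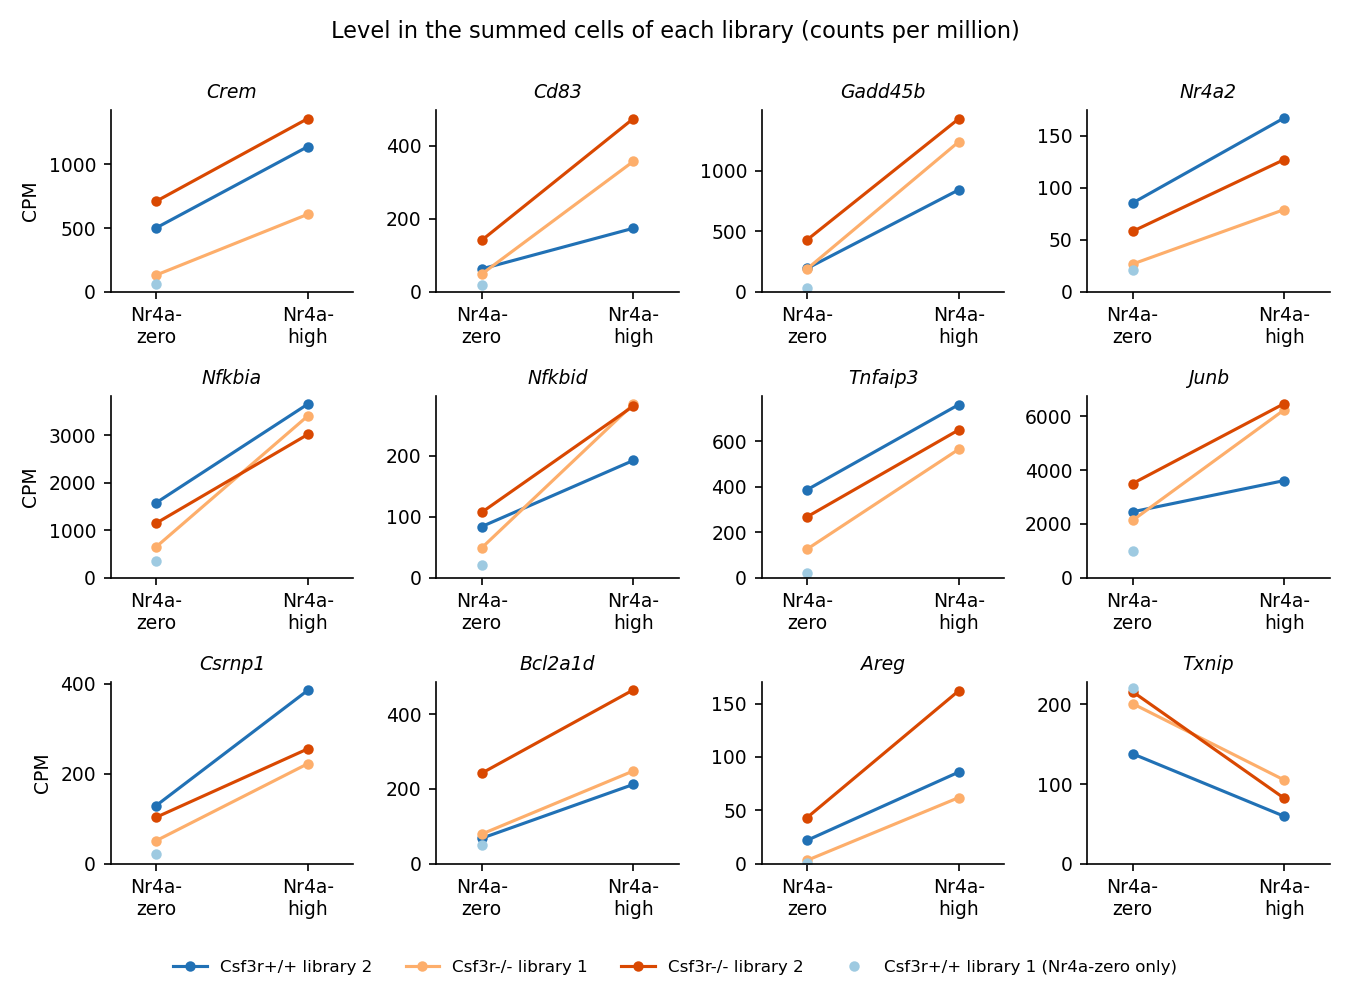
Level of 12 genes (vertical axes, CPM from 0) in summed Nr4a-zero and Nr4a-high cells, with 1 line per library. Csf3r+/+ library 1 is shown for its Nr4a-zero cells only, as its 2 members are too few. In each of the 3 lines of every panel the level is higher in Nr4a-high cells, except for Txnip, which is lower.

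Genes of the NF-kB pathway rose together. Of 14 listed and tested, 12 rose and none fell, with a median log2 change of 0.9 against -0.06 for all genes. The same count was reached without Csf3r+/+ library 1, without barcodes that hold UMIs of other cell types and in depth-matched cells, and DESeq2 called 9. Among the inhibitors of NF-kB, 5 IκB genes and Tnfaip3 rose. Nfkbia encodes IκBα, which holds NF-kB in the cytoplasm. It was at 3660, 3410 and 3020 CPM in members and 1580, 651 and 1150 CPM in Nr4a-zero cells, and it rose by 1.63 ± 0.216 (adjusted p = 2.1e-07). Nfkbid, an atypical nuclear IκB, was at 192, 284 and 281 CPM against 83.7, 48.8 and 107 CPM (log2 1.69 ± 0.117, adjusted p = 1.24e-06). Nfkbiz, another nuclear IκB, was at 375, 216 and 212 CPM against 153, 56.7 and 81.3 CPM (1.51 ± 0.118, adjusted p = 1.73e-08). Members lay above Nr4a-zero cells without overlap for all 3 genes. Tnfaip3 (chr10:19000910-19015657) was at 761, 565 and 650 CPM against 387, 126 and 268 CPM (1.46 ± 0.135, adjusted p = 1.18e-06). Among the subunits, Rel was at 162, 137 and 154 CPM against 82.0, 38 and 63.4 CPM (1.34 ± 0.117, adjusted p = 7.74e-07) and Nfkb1 also rose, by 1.0 ± 0.119 (adjusted p = 4.55e-07). Relb (0.34 ± 0.129, adjusted p = 0.0771) and Bcl3 (0.47 ± 0.281, adjusted p = 0.462) were not called.

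The promoter of Nfkbia is shown as the example of a feedback gene of this list (RefSeq, GRCm38.p6, chr12:55492648-55492897, minus strand, the 250 bases before the gene start, with matches to the NF-kB consensus in capitals).
Nfkbia: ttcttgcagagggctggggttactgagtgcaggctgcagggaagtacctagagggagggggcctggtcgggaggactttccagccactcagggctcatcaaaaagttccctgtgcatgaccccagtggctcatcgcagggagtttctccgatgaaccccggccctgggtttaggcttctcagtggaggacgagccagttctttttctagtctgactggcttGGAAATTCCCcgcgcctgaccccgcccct
It held 1 match, 29 bases before the start, and 7.25% of the promoters of this length held at least 1 on either strand. Binding was not measured.

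Of 9 tested AP-1 genes, 8 rose and none fell (median log2 0.97). Junb was at 3610, 6240 and 6470 CPM in members and 2450, 2130 and 3500 CPM in Nr4a-zero cells (log2 0.97 ± 0.249, adjusted p = 0.00233). Fosl2 was at 518, 391 and 510 CPM against 271, 107 and 281 CPM (1.2 ± 0.127, adjusted p = 4.25e-06). Fosb (1.16 ± 0.12, adjusted p = 3.51e-05), Atf3 (1.78 ± 0.141, adjusted p = 1.37e-06) and Maff (1.57 ± 0.177, adjusted p = 2.47e-05) rose as well. Fos rose by 0.78 ± 0.144 (adjusted p = 0.00117), but by DESeq2 on 4 libraries its adjusted p was 0.0661. In the type 1 leaning cells described below, edgeR did not call Fos (0.12, adjusted p = 0.779), and Jun fell (-0.59, adjusted p = 0.0175). Jun was the exception, at 324, 379 and 504 CPM against 498, 363 and 374 CPM (0.1 ± 0.14, adjusted p = 0.98), lower in members of Csf3r+/+ library 2 and higher in those of Csf3r-/- library 2. Of the Egr genes and their corepressors, all 3 tested rose (2 by DESeq2 on 4 libraries and 1 on 3, 2 in depth-matched cells and Egr1 alone after thinning), with Egr1 at 20.8, 55.5 and 67.0 CPM against 21.7, 20.4 and 24.8 CPM (1.14 ± 0.148, adjusted p = 0.00133), although in Csf3r+/+ library 2 it was not higher in members. Egr2 and Egr3, direct targets of calcium and calcineurin signals, were too low to be tested over all cells, with at most 6.42 CPM in members, and Egr2 was not called after thinning (2.15, adjusted p = 0.281). Of 10 other immediate early genes, 6 rose. Csrnp1 was at 385, 222 and 255 CPM against 129, 51.0 and 103 CPM (1.64 ± 0.118, adjusted p = 1.73e-08). Irf4, a transcription factor whose level follows the strength of receptor signals, was at 11.8, 25.6 and 23.4 CPM against 2.85, 3.14 and 8.43 CPM (2.03 ± 0.226, adjusted p = 9.67e-05). Myc (0.39 ± 0.165, adjusted p = 0.171) and Klf6 (0.26 ± 0.139, adjusted p = 0.275) were not called.

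Genes that limit signalling or shorten the life of transcripts were among those that rose. Of 21 tested genes of signal feedback, 10 rose and 1 fell (median log2 0.34). Phosphatases of MAP kinases rose, among them Dusp5 at 90.6, 111 and 103 CPM against 57.2, 30.8 and 47.0 CPM (1.19 ± 0.119, adjusted p = 3.66e-05), and also Dusp1, Dusp2, Dusp4 and Dusp10. Dusp6 was at 22.1, 19.2 and 28.0 CPM against 22.6, 32.5 and 38.1 CPM and was not called (adjusted p = 0.18). Dgka, a diacylglycerol kinase, was the gene that fell (-0.46 ± 0.138, adjusted p = 0.013), but not by DESeq2 on 4 libraries (adjusted p = 0.147), without barcodes that hold other-cell UMIs (adjusted p = 0.0664) or after thinning (-0.13, adjusted p = 0.923). Of 6 genes of mRNA decay, 3 rose (1 by DESeq2 on 4 libraries and 3 on 3 libraries), with Zc3h12a (Regnase-1) at 119, 88.6 and 118 CPM against 66.4, 21.8 and 49.8 CPM (1.29 ± 0.119, adjusted p = 1.01e-05), beside Zfp36 (1.1 ± 0.119, adjusted p = 4.91e-06) and Zfp36l1 (0.72 ± 0.129, adjusted p = 3.44e-06), for which DESeq2 on 4 libraries gave adjusted p-values of 0.0862 and 0.225. Of 8 genes of the cAMP response, 5 rose, namely Crem, Pde4b, Per1, Adora2a and Sik1. Pde4b, which degrades cAMP, was at 138, 111 and 138 CPM against 77.4, 68.9 and 95.7 CPM (0.7 ± 0.118, adjusted p = 6.14e-05).

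Most listed survival genes rose, while Bcl2 fell. Of 10 tested genes of this list, which includes Gadd45b, 6 rose, 1 fell and 3 were not called. The antiapoptotic Bcl2a1b was at 733, 694 and 1010 CPM in members and 260, 251 and 525 CPM in Nr4a-zero cells (1.28 ± 0.141, adjusted p = 1.27e-08), and Bcl2a1d was at 212, 248 and 465 CPM against 67.9, 79.1 and 242 CPM (1.36 ± 0.122, adjusted p = 1.62e-07). Bcl2a1 genes are near-identical copies, so how their reads were split between them is uncertain. The kinase gene Pim1 was at 1020, 503 and 583 CPM against 448, 213 and 302 CPM (1.15 ± 0.137, adjusted p = 5.45e-09). The proapoptotic Bcl2l11 (Bim) rose too (0.77 ± 0.129, adjusted p = 0.000533). Bcl2 was at 465, 162 and 112 CPM against 705, 204 and 160 CPM and fell by 0.49 ± 0.137 on the log2 scale (adjusted p = 0.00636), although DESeq2 on 4 libraries gave an adjusted p of 0.305. Gadd45a and Gadd45g, the other 2 members of the Gadd45 family, were not called (-0.35 ± 0.167 and -0.02 ± 0.135), nor was the antiapoptotic Mcl1 (0.13, adjusted p = 0.688).

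**Figure D3:**
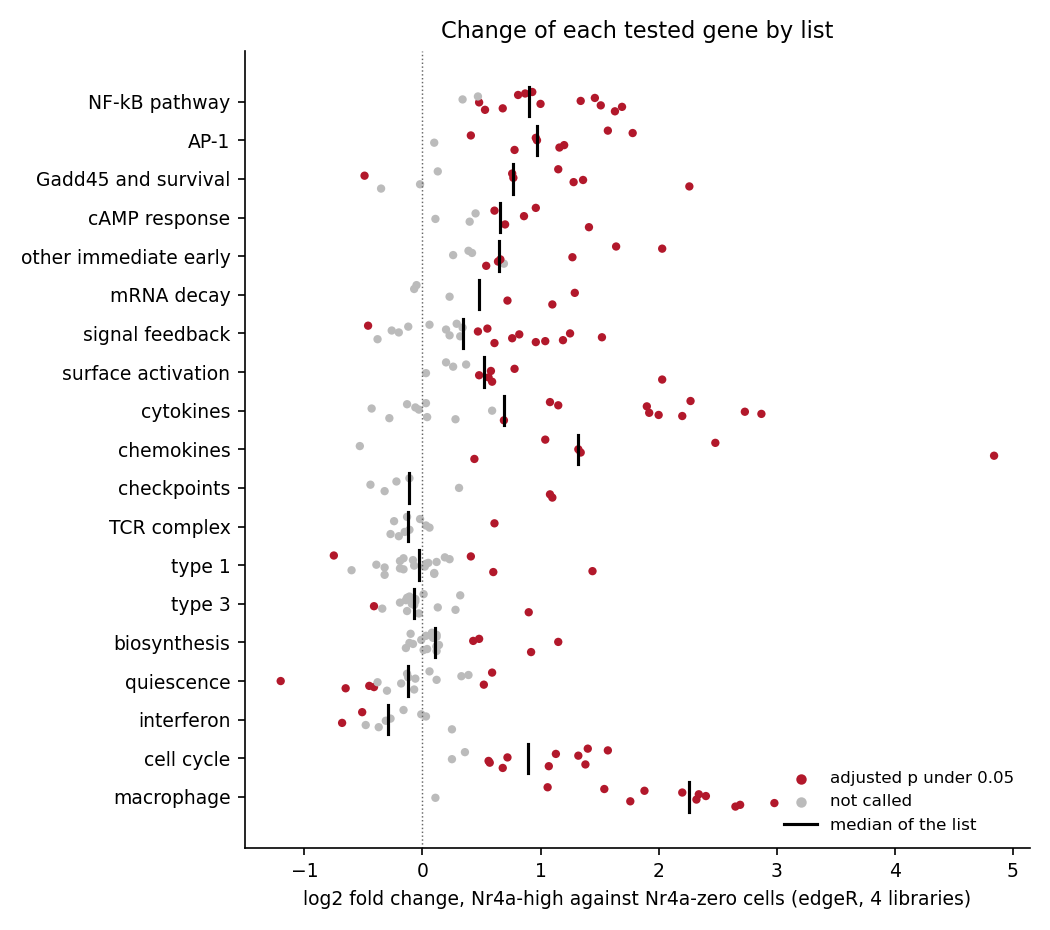
Log2 fold change between Nr4a-high and Nr4a-zero cells (horizontal axis, edgeR on 4 libraries) for each tested gene of 19 lists (rows). Red points passed an adjusted p of 0.05, gray points did not, and the black bar is the median of the list. NF-kB, AP-1, chemokine, cell cycle and macrophage genes lie mostly to the right of 0, while type 1, type 3 and T cell receptor genes lie around it.

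Of 10 surface proteins of activation, 6 rose. Icos, a costimulatory receptor, was at 375, 1150 and 1510 CPM against 226, 580 and 994 CPM (0.78 ± 0.152, adjusted p = 1.14e-05). Cd69, an early activation marker, was at 364, 617 and 387 CPM against 295, 317 and 271 CPM (0.59 ± 0.13, adjusted p = 0.000325), but DESeq2 on 4 libraries gave an adjusted p of 0.361. Il2ra and Tnfrsf9 rose as well, although Tnfrsf9 was not called after thinning (-0.06, adjusted p = 0.981), and Tnfrsf4 rose over 4 libraries but not without Csf3r+/+ library 1 (0.48 in both fits, adjusted p = 0.144 without it). Tnfrsf18 (0.03 ± 0.131), Cd28 (0.2 ± 0.121) and Cd44 (0.26 ± 0.122) were not called. Of 7 checkpoint genes, 2 rose. Pdcd1, which encodes PD-1, was at 74.0, 222 and 393 CPM against 36.6, 63.6 and 248 CPM (1.1 ± 0.126, adjusted p = 4.71e-05), and Ctla4 was at 45.7, 98.3 and 138 CPM against 29.8, 18.4 and 88.2 CPM (1.08 ± 0.125, adjusted p = 0.00278). DESeq2 called neither on 4 libraries and Pdcd1 alone on 3. Lag3 (-0.32 ± 0.247), Havcr2 (0.31 ± 0.288) and Tox (0.08 ± 0.13), which accompany exhaustion, were not called. In depth-matched cells Lag3 (-0.99) and Cd160 (-0.48) fell, while Pdcd1 and Ctla4 still rose. Of 7 transcription factor genes tied to exhaustion or late activation, Nfatc1, Ikzf3 and Bhlhe40 rose and none fell over 4 libraries (Bhlhe40 alone by DESeq2 there, and Nfatc1 was not called in depth-matched or thinned cells or without barcodes that hold other-cell UMIs), and neither of the 2 tested genes of regulatory T cells was called.

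Effector transcripts rose selectively and differed by library. Of 19 tested cytokines and ligands of the TNF family, 10 rose. Without Csf3r+/+ library 1, 9 rose, Il13 was not called (adjusted p = 0.0669) and Ltb, which encodes lymphotoxin beta, fell (-0.37, adjusted p = 0.00527). Il17a (chr1:20730905-20734496), the cytokine of type 3 T cells, was at 2.77, 962 and 2650 CPM in members and 3.73, 121 and 831 CPM in Nr4a-zero cells. It rose by 2.2 ± 0.186 (adjusted p = 7.1e-07), but it was not higher in Csf3r+/+ library 2, and DESeq2 gave an adjusted p of 0.73. Ifng, the cytokine of type 1 cells, was at 246, 47.0 and 54.1 CPM against 132, 41.8 and 35.7 CPM (0.69 ± 0.127, adjusted p = 0.000816). This call was lost in cells without any heat-shock UMI (0.19, adjusted p = 0.783) and missed in type 3 leaning cells at a larger change (1.05, adjusted p = 0.128), with edgeR in both. Areg (chr5:91139599-91148432), an epidermal growth factor ligand tied to tissue repair, was at 85.8, 61.9 and 162 CPM against 21.9, 3.14 and 43.2 CPM (2.27 ± 0.131, adjusted p = 1.66e-06), with no overlap. Cd40lg was at 73.3, 227 and 324 CPM against 36.8, 100 and 159 CPM (1.08 ± 0.121, adjusted p = 1.26e-07). Tnf was at 29.1, 41.7 and 34.9 CPM against 26.1, 29.7 and 30.2 CPM and was not called (0.28 ± 0.154, adjusted p = 0.305). Il2 (-0.28 ± 0.281) and Csf2 (0.04 ± 0.341) were not called either, each at no more than 8.3 CPM in members.

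Of 7 tested chemokines, 6 rose and none fell over 4 libraries. DESeq2 called 3 of them, in depth-matched cells 4 rose and 1 fell (Ccl5), and in thinned cells 3 rose (Cxcl2, Cxcl10 and Ccl1) and 1 fell (Ccl5). Cxcl2 (chr5:90903871-90905938), an attractant of neutrophils, was at 48.4, 252 and 485 CPM against 7.89, 19.6 and 145 CPM (2.48 ± 0.132, adjusted p = 7.74e-07). Cxcl10 was at 450, 300 and 238 CPM against 209, 136 and 126 CPM (1.04 ± 0.123, adjusted p = 3.17e-08). By edgeR it rose in type 3 leaning cells (1.59, adjusted p = 4.75e-05) but was not called in type 1 leaning cells (0.07, adjusted p = 0.979). Ccl5, a chemokine of cytotoxic cells, was at 6600, 1130 and 959 CPM against 7140, 1710 and 1760 CPM. It was not called over 4 libraries (-0.53 ± 0.24, adjusted p = 0.171) and fell without Csf3r+/+ library 1 (adjusted p = 0.000554). Ccl1 was at 136 CPM against 4.44 CPM in Csf3r-/- library 2. It was at 10.4 CPM (15 UMIs) against 0.658 CPM (3 UMIs) in Csf3r+/+ library 2, while both groups were at 0 in Csf3r-/- library 1.

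Few lineage genes of either kind of UTCαβ were called over 4 libraries, and more were called in depth-matched cells. Of 22 genes of the type 1 program 3 rose (Gzmb, Gzmc, Stat4) and 1 fell (Cxcr3), and of 17 genes of the type 3 program 1 rose (Rora) and 1 fell (Maf), with medians of -0.02 and -0.07. In depth-matched cells 7 of 17 type 3 genes rose and none fell (median 0.26), led by Rora (1.12) and Il1r1 (0.79). Of all genes in that fit, 398 of 7806 rose and 75 fell. There 4 type 1 genes rose and 4 fell (Gzmk, Nkg7, Klrd1 and Cxcr3, median -0.29). After thinning, 3 type 3 genes rose, while 1 type 1 gene rose and 5 fell, and of all genes 213 of 9440 rose and 85 fell. Gzmb, which encodes granzyme B, was at 1480, 391 and 333 CPM against 756, 240 and 273 CPM (0.6 ± 0.146, adjusted p = 0.00109), a call that DESeq2 made on 3 but not on 4 libraries and that was lost in cells without any heat-shock UMI (0.32, adjusted p = 0.142). Tbx21, the lineage factor of type 1 cells, was not called (-0.32 ± 0.188). Cells were also classed by which of these 2 programs had more UMIs after thinning to 1500 UMIs. In Csf3r+/+ library 2, 84.0% of members leaned to type 1 against 86.0% of Nr4a-zero cells. In Csf3r-/- library 1, 86.2% of members leaned to type 3 against 79.3%, and in Csf3r-/- library 2 these were 85.2% and 80.9%. In these 3 libraries members thus largely had the leaning of the library they came from. In Csf3r+/+ library 1, 67.9% of 1431 classed Nr4a-zero cells leaned to type 3 and 31.7% to type 1. The Csf3r+/+ libraries thus leaned in opposite directions. Free RNA may enter these classes, and its part was not measured. With cells classed on all their UMIs, within type 1 leaning cells alone 167 genes were called, within type 3 leaning cells 369, and 86 were called in both. NF-kB genes rose in both kinds of cell, 8 of 14 in type 1 leaning and 10 of 14 in type 3 leaning cells. Of all genes, 138 of 7806 and 319 of 8016 rose in these fits. In type 1 leaning cells 5 of 9 AP-1 genes rose and 1 fell, and in type 3 leaning cells 7 of 9 rose. Of surface activation genes 1 of 10 and 5 of 9 rose, in the same order, and of feedback genes 3 of 19 and 10 of 20. Of cAMP genes 2 of 8 and 4 of 8 rose, and of Egr genes and corepressors 0 of 3 and 1 of 3.

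Fewer genes fell, and few of them fell in every fit. Txnip (chr3:96557957-96561883), a negative regulator of glucose uptake, was at 59.5, 105 and 82.1 CPM in members and 138, 201 and 216 CPM in Nr4a-zero cells (-1.2 ± 0.134, adjusted p = 2.52e-07), without overlap. Among genes of quiescence and recirculation, Txnip, S1pr1 and S1pr4 fell, while Satb1 and Ccr7 rose, but Ccr7 was not called without Csf3r+/+ library 1 (adjusted p = 0.0572). DESeq2 on 4 libraries called neither Satb1 nor Ccr7 as higher. S1pr1, the receptor that lets T cells leave tissue, was at 37.4, 37.4 and 22.5 CPM against 63.1, 51.5 and 37.1 CPM (-0.65 ± 0.15, adjusted p = 0.00307). At similar changes this call was missed after thinning (-0.58, adjusted p = 0.351) and in type 1 (-0.55, adjusted p = 0.208) and type 3 leaning cells (-0.67, adjusted p = 0.0737), all by edgeR. DESeq2 on 3 libraries missed it as well (-0.59, adjusted p = 0.222). Klf2, which activates S1pr1, was at 24.2, 20.3 and 24.3 CPM against 48.2, 23.7 and 19.5 CPM and was not called (adjusted p = 0.479). Among 10 interferon genes, Ifit3 (-0.68 ± 0.136, adjusted p = 0.000204) and Cmpk2 fell, the latter not called without Csf3r+/+ library 1 (adjusted p = 0.0572), and none rose over 4 libraries. DESeq2 on 4 libraries called neither (adjusted p = 0.359 for Ifit3). In type 3 leaning cells edgeR put Ifit3 at -0.29 (adjusted p = 0.498). Beyond the lists, the largest falls by the rule for naming genes were those of Lpar6, Exosc4, AI467606, Slfn1, Pik3ip1 and Tspan32, between -0.85 and -0.65, and the largest rise was that of Cdkn1a, a cell cycle inhibitor, at 129, 92.9 and 161 CPM against 39.2, 20.7 and 62.3 CPM (1.67 ± 0.12, adjusted p = 3.76e-08).

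Of 20 genes of ribosome biogenesis, translation, amino acid transport and glycolysis, 4 rose and none fell (median 0.11), among them Odc1, the first enzyme of polyamine synthesis (0.92 ± 0.118, adjusted p = 4.12e-06). None of the 10 mitochondrially encoded genes was called over 4 libraries (mt-Nd1 and mt-Nd5 fell without Csf3r+/+ library 1), and the mitochondrial share of UMIs had medians of 2.44%, 2.17% and 2.86% in members and 2.46%, 2.49% and 3.02% in Nr4a-zero cells. Of 10 heat-shock genes outside the selection, Hspa5 and Dnaja1 rose, and without Csf3r+/+ library 1 Hspa8 and Hsp90aa1 as well.

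Markers of macrophages and antigen presenting cells moved with the members. Of 12 macrophage genes, 11 rose and Cst3 did not (10 rose without Csf3r+/+ library 1, and DESeq2 called 6 on 4 libraries and 8 on 3). C1qa, a complement component of macrophages, was at 84.4, 79.0 and 141 CPM in members and 17.1, 9.19 and 23.3 CPM in Nr4a-zero cells (2.65 ± 0.133, adjusted p = 8.79e-10). In members with 3 to 4 Nr4a UMIs it was at 5.69, 8.57 and 105 CPM, and in those with 5 to 9 at 303, 231 and 235 CPM, so in Csf3r+/+ library 2 and Csf3r-/- library 1 the higher level was in the 94 and 84 cells with 5 to 9 UMIs. The listed macrophage genes summed to 1040, 780 and 2410 CPM in members and 461, 495 and 799 CPM in Nr4a-zero cells, with Apoe the most abundant in members of Csf3r+/+ library 2 and Csf3r-/- library 2 and Cst3 in Csf3r-/- library 1. Adgre1 was at 0 in members of Csf3r+/+ library 2 and Mrc1 in those of Csf3r-/- library 1. The 10 antigen presenting genes summed to 585, 1080 and 1300 CPM against 286, 343 and 352 CPM, with Cd74 the most abundant and 5, 6 and 3 of them at 0 in members, and all 4 that could be tested rose. Barcodes with at least 2 UMIs of other-cell markers made up 20.4%, 41.6% and 47.7% of members and 15.5%, 33.0% and 39.3% of Nr4a-zero cells. Without these barcodes, none of the 4 macrophage genes and 4 antigen presenting genes still above the filter was called. For the macrophage genes the choice of barcodes fixes this, since their own UMIs marked the barcodes. Cd74 and the genes with names that begin with H2- were not among the markers. H2-Aa changed by 0.06 and H2-Ab1 by 0.0 in this fit, against 1.74 and 1.63 over all members. In the same fit 12 of 14 NF-kB and 8 of 9 AP-1 genes rose. In depth-matched cells 5 of 9 macrophage genes rose, and in thinned cells 0 of 9. B cell genes were not called, fibroblast genes summed to at most 4.13 CPM in members, and of 8 neutrophil genes only Il1b was tested, which rose. The part of such RNA in the genes that macrophages also express was not tested. In barcodes without Cd3e and with at least 20 macrophage UMIs, Cd83 was at 651, 179 and 620 CPM and Cxcl2 at 246, 73.7 and 1110 CPM. These barcodes numbered 61, 15 and 102. The heat-shock limit of the members was not set for them, and only 15, 5 and 53 were under it, so the 2 sides differ in this limit. Cdkn1a was at 423, 306 and 360 CPM and Atf3 at 633, 242 and 685 CPM there, above members of every library. Nfkbia, at 787, 495 and 932 CPM, and Gadd45b, at 206, 137 and 185 CPM, were below members of every library. Areg was at 4.47, 0 and 10.9 CPM there, below its level in members of every library.

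Cell cycle genes moved with the members as well, and with their depth. Of 12, 10 rose in the fits of 4 and of 3 libraries, led by Birc5 (1.57 ± 0.155, adjusted p = 1.43e-05), while DESeq2 called 1 on 4 libraries and 7 on 3. Barcodes with at least 3 cell cycle UMIs made up 9.37%, 8.18% and 7.91% of members and 3.06%, 5.41% and 2.98% of Nr4a-zero cells. Against Nr4a-zero cells of the same depth 0 of 12 was called, with Mki67 at -0.21, and after thinning 0 of the 11 tested. In contrast, 12 of 14 NF-kB genes rose in depth-matched and 11 of 14 in thinned cells. In all, 124 genes were called in each of 6 fits (4 libraries, 3 libraries, DESeq2, no other-cell barcodes, depth-matched and thinned), of which 121 rose and 3 fell (Txnip, Exosc4 and Stx16).

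**Figure D4:**
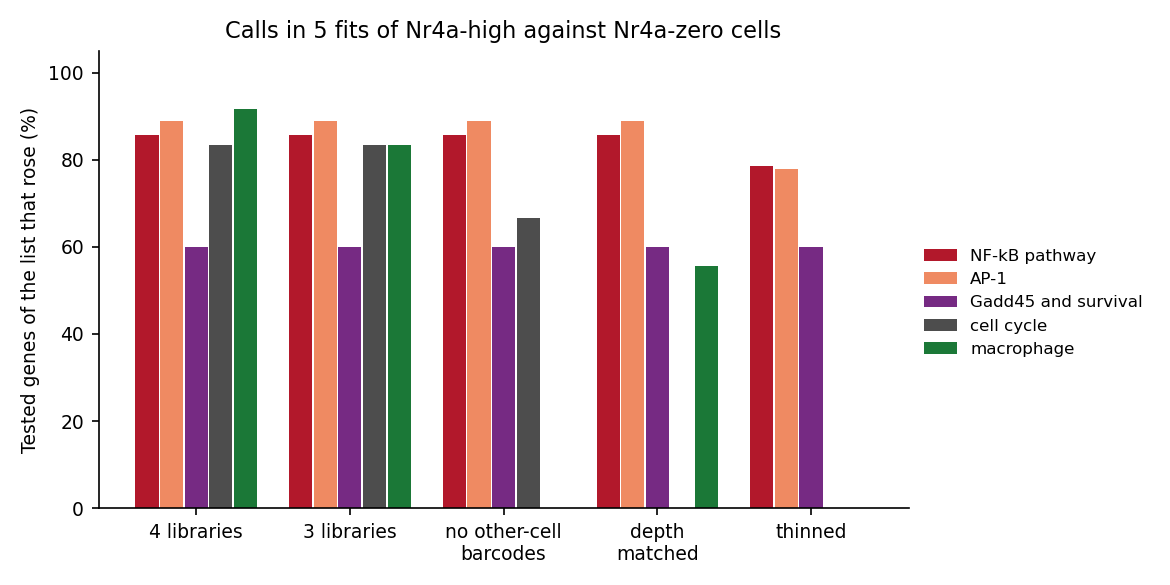
Percent of the tested genes of 5 lists that rose in Nr4a-high against Nr4a-zero cells (vertical axis from 0) in 5 fits (horizontal axis). No bar means 0: macrophage genes without other-cell barcodes, where the filter itself removes them, and after thinning, and cell cycle genes in depth-matched and thinned cells. In these fits at least 11 of 14 NF-kB genes and at least 7 of 9 AP-1 genes rose.

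The levels were graded with the number of Nr4a1 and Nr4a3 UMIs, given here as a description since these bins extend the selection. From 0 over 1, 2, 3 to 4 and 5 to 9 UMIs, Gadd45b in Csf3r+/+ library 2 was at 194, 395, 659, 757 and 1060 CPM. In Csf3r-/- library 1 it was at 190, 493, 1050, 1170 and 1390 CPM, and in Csf3r-/- library 2 at 430, 788, 1080, 1260 and 1680 CPM. In this gene cells with exactly 2 UMIs, just outside the threshold, were closer to members than to Nr4a-zero cells in all 3 libraries. Il17a in Csf3r-/- library 2 went from 831 over 1400, 1990 and 2480 to 2820 CPM, while in Csf3r+/+ library 2 it was at most 41.7 CPM in any of these bins. Jun differed between libraries, at 498, 310, 374, 327 and 316 CPM in Csf3r+/+ library 2 and at 374, 442, 463, 521 and 477 CPM in Csf3r-/- library 2. The macrophage gene Lyz2 was at 30.5, 14.6, 9.56, 12.3 and 575 CPM in Csf3r+/+ library 2, high only in the 94 cells with 5 to 9 UMIs, and at 68.9, 231, 351, 299 and 269 CPM in Csf3r-/- library 2, higher from 1 UMI on. Median depth in Csf3r+/+ library 2 was 2550, 2834, 3090, 3334 and 3197.5 UMIs over the same bins. There depth increased with Nr4a UMIs up to the bin of 3 to 4 but not beyond it, and the part of depth in the grade was not tested.

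**Figure D5:**
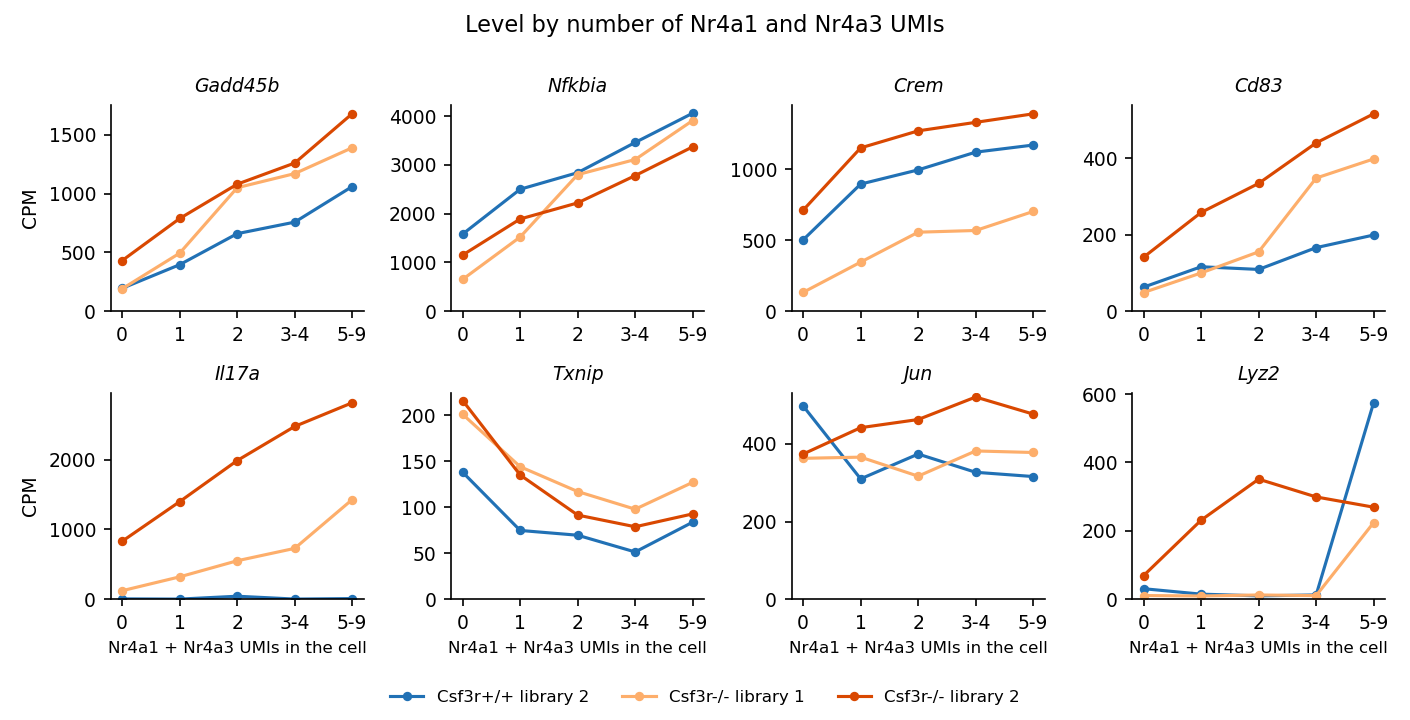
Level of 8 genes (vertical axes, CPM from 0) by the number of Nr4a1 and Nr4a3 UMIs in the cell (horizontal axes), with 1 line per library with at least 20 members. Gadd45b, Nfkbia and Crem increase from bin to bin in all 3 libraries, Txnip is highest at 0, and Lyz2 is raised in Csf3r+/+ library 2 and Csf3r-/- library 1 only at 5 to 9 UMIs.

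Members with both Nr4a1 and Nr4a3 were then compared with members that had Nr4a1 alone, in the 3 libraries with at least 20 members. These groups were split by UMIs of the selection genes and were not matched in depth, so the calls are given as a description. Of 6438 genes, 13 were called (0.202%), 12 higher and 1 lower with both. Crem was at 1280, 802 and 1590 CPM in cells with both and 1010, 546 and 1140 CPM in cells with Nr4a1 alone (0.48 ± 0.0645, adjusted p = 0.000888). Ramp3, a receptor partner that couples to cAMP signals, was at 417, 427 and 628 CPM against 246, 232 and 450 CPM (0.71 ± 0.101, adjusted p = 0.00156). Il22 was higher with both (adjusted p = 0.00873), at 35.9, 61.0 and 7.86 CPM against 5.82, 0 and 0.882 CPM, and no fold is given because it was at 0 with Nr4a1 alone in Csf3r-/- library 1. Apoe, Lyz2, Cd14, Lgmn, Cd63 and Ccl8, which macrophages express, were higher in 2 of the 3 libraries, as Apoe at 740, 13.1 and 1970 CPM against 29.1, 56.6 and 297 CPM. Ccl3 and Fcer1g were also higher, Ccl1 through Csf3r-/- library 2, and Lgals1 was lower (-0.29 ± 0.0529, adjusted p = 0.0204). Gadd45b (0.17 ± 0.0917, adjusted p = 0.714), Nfkbia (-0.07 ± 0.0438, adjusted p = 0.781) and Il17a (0.17 ± 0.0765, adjusted p = 0.58) were not called. DESeq2 called 4 of the 13, namely Crem, Ramp3, Il22 and Ccl8.

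Genotypes were compared among the members themselves, where the 2 cells of Csf3r+/+ library 1 leave Csf3r+/+ library 2 as the only full library of its genotype. Of 7129 genes 748 were called by edgeR (10.5%), 378 higher and 370 lower in Csf3r-/-, while DESeq2 called 2 (165 at an unadjusted p under 0.05). On simulated data of this comparison DESeq2 recovered 0% and edgeR 51.1% of changed genes, so DESeq2's low count says little. The simulated libraries shared 1 expression profile, which the real Csf3r+/+ libraries do not. The simulation therefore cannot show how many of edgeR's calls are false. Without Csf3r+/+ library 1 edgeR called 1182 genes, and without Csf3r+/+ library 2 it called 75, and in both fits the spread comes from the 2 Csf3r-/- libraries alone. With at least 5 Nr4a UMIs, which leave no member in Csf3r+/+ library 1, edgeR called 0 (1059 at an unadjusted p under 0.05). With 1 full Csf3r+/+ library, genotype and library cannot be told apart for these cells. Il17a, called by both tools, was at 0 and 2.77 CPM in Csf3r+/+ members and 962 and 2650 CPM in Csf3r-/- members (9.19 ± 1.38, adjusted p = 3.27e-05). In Nr4a-zero cells it was at 10.9, 3.73, 121 and 831 CPM over the 4 libraries. Itgb7, the other gene called by both tools, was at 0, 15.9, 759 and 630 CPM in members. In Nr4a-zero cells, where Csf3r+/+ library 1 has 1477 cells, it was at 365, 28.7, 675 and 656 CPM. Ltb4r1 was at 0, 16.6, 431 and 373 CPM in members and 372, 26.1, 402 and 419 CPM in Nr4a-zero cells, so in Nr4a-zero cells Csf3r+/+ library 1 was nearer to the Csf3r-/- libraries than to Csf3r+/+ library 2 for Ltb4r1, and for Itgb7 it lay between them. Lower in Csf3r-/- members was Prkca, at 153 (1 UMI), 138, 8.54 and 9.17 CPM, and in Nr4a-zero cells at 23.5, 116, 9.79 and 9.65 CPM. Rpl21-ps4 and Gm6133 were called as well, but such pseudogenes share reads with ribosomal protein genes and are uncertain. Of the genes higher in members, Cxcl2 was called higher in Csf3r-/- members (2.86 ± 0.547, adjusted p = 0.000677) and Ifng lower (-2.34 ± 0.374, adjusted p = 3.67e-05). Not called over 4 libraries were, for example, Crem (0.35 ± 0.728, adjusted p = 0.865), Gadd45b (0.61 ± 0.791, adjusted p = 0.765), Nfkbia (0.36 ± 0.927, adjusted p = 0.898) and Cd83 (1.3 ± 0.522, adjusted p = 0.0951), and with standard errors of 0.522 to 0.927 these differences are only coarsely bounded. Gzmb, at -1.61 ± 0.677, was not called over 4 libraries either (adjusted p = 0.123). Without Csf3r+/+ library 1, edgeR put the differences at 1.13 for Cd83, -0.95 for Nfkbiz and -2.18 for Gzmb. In that fit the single Csf3r+/+ library is assumed to vary like the 2 Csf3r-/- libraries.

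Whether the change from Nr4a-zero to Nr4a-high cells differed between genotypes was tested by an interaction, which called 7 of 9947 genes (0.0704%) by edgeR and 0 by DESeq2 (66 at an unadjusted p under 0.05), which on simulated interactions recovered 43.5% of changed genes against 7.5% for edgeR. The lowest adjusted p-values were those of Il1b (2.67 ± 0.364, adjusted p = 8e-05) and Ccl4 (2.31 ± 0.285, adjusted p = 6.78e-06), called with and without Csf3r+/+ library 1. Ccl4 was at 92.0 CPM in members and 111 CPM in Nr4a-zero cells of Csf3r+/+ library 2, at 123 against 48.4 CPM in Csf3r-/- library 1 and at 284 against 47.8 CPM in Csf3r-/- library 2. For Il17a the difference of changes was 2.75 ± 1.14 (adjusted p = 0.862) and for Areg 0.34 ± 0.301 (adjusted p = 1.0), so neither was shown to differ.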

How the data were processed

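Per the labels and the study's methods, the authors aligned reads of 10x Genomics 3′ libraries to mm10 with Cell Ranger, counted UMIs per gene and barcode, and joined both libraries of a genotype with the aggregate option. Whether this lowered reads to equal depth is not stated. The deposited values are raw UMI counts of 27998 genes. The submitters' processing notes also name R 3.4.4 and Seurat 2.3.4. Of the deposited columns, 0 were left without a library. The 4 libraries held 12483656, 38559291 (Csf3r+/+), 18136748 and 23234493 (Csf3r-/-) UMIs. Shared barcode sequences between pairs of libraries numbered 33 to 163, of which 1 member each in 2 pairs.

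UMIs were summed per library and cell group and tested with edgeR 4.0.16 under R 4.3.3 (TMM factors, filterByExpr, quasi-likelihood test, Benjamini-Hochberg over all genes tested, threshold 0.05). The library was a block within libraries and left out between genotypes. The 7 genes of the selection counted in library sizes but were not tested. DESeq2 1.42.0 was an alternative. Cells are not replicates. p-values and standard errors rest on these 4 libraries only. edgeR shares information on variation over genes, and the standard errors follow from its test. Neither therefore gives the spread of a single gene's change between libraries, which the values per library show. Tested on simulated data, in which 200 genes were changed by 2 on the log2 scale at a dispersion of 0.05, edgeR found 99.5% of changed genes within 4 libraries with 7.87% false calls (9835 genes), 100% within 3 with 1.48% (9793 genes), 51.1% between genotypes with 5.15% (7186 genes) and 7.5% of interactions with 34.8% (9849 genes), so interaction calls are weak. DESeq2 found 96.5%, 100%, 0% and 43.5% in the same order, with 8.1%, 0.498%, 0% and 9.38% false calls. All simulated libraries shared 1 expression profile, so these rates leave out the larger differences between the real libraries.

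The members and the 31 gene lists were chosen with earlier results of these data known. Beyond the lists, the genes named within libraries were the 15 largest rises and 10 largest falls among called genes that changed the same way in each library with at least 20 members and reached a mean of 50 CPM in the higher group. The comparison of Nr4a1 with Nr4a1 and Nr4a3, and fits combining 3 libraries with another change, were chosen after seeing the data. No doublet caller was run. Instead, barcodes with at least 2 other-cell UMIs were left out as an alternative. Depth matching took, for each member, the Nr4a-zero cell of its library nearest in UMIs, each used once. Gene places are from GENCODE vM21 (GRCm38, the same assembly as mm10). Promoters are from RefSeq. Python 3.11.15, scipy 1.17.1 and matplotlib 3.10.9 were used. Some genes of the lists are not reported here.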

Additional observations from a re-analysis of the deposited data

Results flagged for a closer look

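The change from Nr4a-zero to Nr4a-high cells differed between genotypes for 7 genes by edgeR's interaction test, of which DESeq2 called 0. The differences (Csf3r-/- minus Csf3r+/+, log2) were -1.46 for Gzma, -1.13 for Cks2, 1.2 for H2-Aa, 2.31 for Ccl4, 2.38 for Car2, 2.43 for A430046D13Rik and 2.67 for Il1b. Without barcodes that hold other-cell UMIs that of H2-Aa was -1.15 and was not called by edgeR. Cks2 (-1.12) and A430046D13Rik (2.12) were not called there either (adjusted p = 0.802 for each), and Il1b could not be tested. Gzma (-2.48, adjusted p = 0.000661), Ccl4 (2.53, adjusted p = 5.67e-09) and Car2 (3.61, adjusted p = 1.46e-06) were called. Without Csf3r+/+ library 1, Gzma (-1.4, adjusted p = 0.355) and A430046D13Rik (2.5, adjusted p = 0.0798) were not called by edgeR. On simulated data edgeR's test recovered 7.5% of changed genes and 34.8% of its calls were false, against 43.5% and 9.38% for DESeq2.

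Nr4a-high barcodes were also seen among those without Cd3e. Among barcodes with no UMI of Cd3e under the same limits, those with at least 3 UMIs of Nr4a1 and Nr4a3 made up 0.254% (1 of 394) in Csf3r+/+ library 1, 10.0% (257 of 2571) in Csf3r+/+ library 2, 3.78% (66 of 1744) in Csf3r-/- library 1 and 11.2% (318 of 2845) in Csf3r-/- library 2. The order of the libraries is that of the T cells. A barcode without a Cd3e UMI can still be a T cell at this depth, and which cells these are was not tested.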

How the results depend on the processing

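Between Nr4a-high and Nr4a-zero cells edgeR called 886 genes and DESeq2 213 (312 in 3 libraries). The count was 471 with at least 5 Nr4a UMIs, 563 without other-cell barcodes (499 in 3 libraries), 397 without any heat-shock UMI, 167 in type 1 and 369 in type 3 leaning cells, 473 with depth-matched cells (400 in 3 libraries), 298 after thinning, 0 with the library not in the model (483 at an unadjusted p under 0.05) and 339 to 739 with each library left out. Of listed genes, DESeq2 on 4 libraries called as higher 6 of 9 AP-1, 3 of 10 other immediate early, 6 of 21 feedback, 3 of 8 cAMP and 7 of 19 cytokine genes, and after thinning 6 of 17 cytokine genes rose. In depth-matched cells 7 of 10 other immediate early, 12 of 20 feedback, 4 of 8 cAMP, 2 of 6 exhaustion factor, 9 of 15 cytokine, 3 of 19 biosynthesis and 4 of 9 other heat-shock genes rose, and of 10 interferon genes 1 rose and 1 fell. Between genotypes, 748 became 2 (DESeq2), 1159 (no TMM factors), 0 (at least 5 Nr4a UMIs) and 75 to 1182 (each library left out). The interaction's 7 became 0 (DESeq2), 4 (no filter), 14 (no TMM factors), 4 (no other-cell barcodes) and 3 to 119 (each library left out). The 13 genes between members with both receptors and with Nr4a1 alone became 4 (DESeq2), 94 (no filter) and 9 to 54 (each library left out). The difference in share ranged from -2.82 to 9.42 points with each library left out, and was -0.273 without Csf3r-/- library 2. Of single genes, 32 were recomputed under each setting that tested them. They kept direction and call in 622 recomputed values and lost the call in 70, of which 32 had the library not in the model. The 11 that turned were Apoe (-0.25 without other-cell barcodes, -0.24 so in 3 libraries, -0.21 in type 1 leaning cells, -0.48 thinned), C1qa (-0.4 thinned, -0.49 without other-cell barcodes in 3 libraries) and Mki67 (-0.23 without heat-shock UMIs, -0.57 without cycling barcodes, -0.21 depth-matched in 4 and in 3 libraries, -0.93 thinned). Outside these 32, Tnfrsf9 (-0.06), Gzmc (-0.03), Ccl3 (-0.52), Xcl1 (-0.2), C1qb (-0.29), C1qc (-0.17), Birc5 (-0.4) and Lyz2 (-0.54) also turned when thinned. Lyz2 turned without other-cell barcodes as well (-0.59, and -0.56 in 3 libraries), and Bcl2 (0.2) and Cxcr3 (0.35) turned in type 3 leaning cells. The causes were not tested. Libraries of the 2 genotypes could not be paired, because the number at the end of a barcode is not tied to the replicate numbers of the labels. Nr4a-high and Nr4a-zero cells were paired within each library by the block. Nr4a1-only against Nr4a3-only cells was not run, with fewer than 20 Nr4a3-only cells in each library. Depth limits genes of few UMIs, such as Egr2, Il22 and Ccl1.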
